A study of Mus musculus with 48 samples.

Results

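The clustered protocadherin genes lie in 3 tandem arrays on mouse chromosome 18, named Pcdha, Pcdhb and Pcdhg. Every region of the deposited peak list that overlapped chromosome 18 (mm10) from 36.9 to 37.9 Mb was taken, which gave 68 of 95882 regions. Of these, 57 lay in an array (15 in Pcdha, 19 in Pcdhb and 23 in Pcdhg), and the other 11 lay between the arrays or in neighbouring genes. The arrays hold 58 genes by the symbols of the RefSeq gene table, 14 Pcdha, 22 Pcdhb and 22 Pcdhg. The study captured methylated DNA from intestinal tissue with a methyl-CpG-binding domain (MethylMiner) and sequenced it (MBD-seq). There were 12 mice, 7 labelled GermFree (germ-free) and 5 labelled ConvR, with a library each from colon, ileum, jejunum and duodenum, 48 libraries in all. The sample labels do not spell out ConvR. The strain, sex and age of the mice, and how the ConvR mice were raised and colonised, were not given in the sources used here. No agent or allele other than the 2 mouse models is named in the labels.

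Clustered protocadherins are cell-surface adhesion proteins of the cadherin family, best known for giving neurons individual surface identities. In the alpha and gamma arrays, each variable first exon has its own promoter and is joined to constant exons shared by the array, while the beta genes are complete in a single exon. Promoter choice in neurons is tied to DNA methylation and to looping by CTCF and cohesin, and the C-type genes at the end of the alpha and gamma arrays are used more evenly across neurons than the alternate genes before them.

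A level here is TMM-normalised CPM, which sets a region’s count against the total of its library. A higher level means more captured DNA, which depends on how many methylated CpG sites a region holds and how many of its copies carry them. In bulk tissue, a change in methylation within a cell type and a change in the mixture of cells cannot be told apart. The tissue label could not be checked against markers, because captured DNA does not count cells or transcripts. The protocadherin copies resemble each other, and the placement of reads that match several copies was not given in the sources used here. The value of any single gene is uncertain for that reason.

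Library totals ran from 1007560 to 3033782 counts, with a median of 2122529. The 57 array regions together held 663 to 2250 counts per library, with a median of 1368. That was 0.0522% to 0.0763% of a library. Every region is named after the GermFree model, and which libraries entered peak calling was not given in the sources used here. The colon library of ConvR mouse 3 stood apart from the other colon libraries in these arrays, and the model difference in the colon and the gamma calls between colon and ileum are given with and without that mouse.

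Of the 57 array regions, 52 overlapped the first 3 kb of a protocadherin gene, the stretch that holds the variable exon, and 5 lay elsewhere in an array. In Pcdha it was 14 of 15 regions and in Pcdhg 19 of 23, where these stretches make up 16.2% and 36.6% of the array. In Pcdhb it was 19 of 19, but the beta genes are short (median 3418 bp) and the stretch holds 84.5% of their bases, so nearly any region in a beta gene meets it. A region lay at the start of 54 of the 58 genes, and none did at Pcdhb5, Pcdhb20, Pcdhgb5 and Pcdhgc3. The regions covered 14.5% of the Pcdha array (36930285 to 37188897), 13.9% of the Pcdhb array (37264998 to 37521419) and 25.4% of the Pcdhg array (37661775 to 37841873). Of the 52 regions at gene starts, 17 reached over the annotated start itself and 35 began inside the gene. Those 35 began at a median of 627 bp after the start. A region overlapped the first 3 kb of both Pcdhb21 and Pcdhb22, and another that of both Pcdhgb7 and Pcdhga11. Each began inside the first gene named and reached over the annotated start of the second only. The array regions were wider than the series as a whole, with a median of 1799 bp against 1208 bp.

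Per kilobase, the 57 regions ran from percentile 5.79 to percentile 87.5 of all regions. The highest values lay in narrow regions, of 508 bp past the start of Pcdhgc5 and of 491 bp at Pcdhga5. The lowest lay in a wide one, of 4453 bp at Pcdhac2, so ranks per kb cannot be separated from region width. The mean level over the 48 libraries lay between 4.67 and 8.43 CPM per kb, with a median of 5.82, beside a median of 6.22 over all regions and 6.22 over the 3360 regions of chromosome 18 outside the window. The median was 5.41 CPM per kb in Pcdha, 6.16 in Pcdhb and 5.87 in Pcdhg. The 11 neighbouring regions, which are narrower, had a median of 7.71.

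Within the Pcdha array, the highest level per kb was 6.02 CPM per kb, in a region inside the pseudogene Gm36858 (36979634 to 36981199), between the starts of Pcdha7 and Pcdha8. Pcdha10 (37005942 to 37007458) followed with 5.96 and Pcdha6 (36968387 to 36970141) with 5.81 CPM per kb. The lowest mean level of a Pcdha region, not scaled to length, was 8.56 CPM at Pcdha3. In Pcdhb the highest were Pcdhb9 with 7.26, Pcdhb6 with 7.18 and Pcdhb2 with 6.61 CPM per kb, and the lowest mean level was 5.17 CPM at Pcdhb10. In Pcdhg the highest was 8.43 CPM per kb in a region past the start of Pcdhgc5 (37823916 to 37824423). Pcdhga5 had 8.0 and Pcdhgc4 had 7.71 CPM per kb. Pcdhga5 also had the lowest mean level, 3.93 CPM, over a region of 491 bp. Of the C-type regions, Pcdhac1 had 5.66, Pcdhac2 had 4.67 and Pcdhgc5 had 6.45 CPM per kb.

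The first comparison asked whether captured DNA at these genes differed between GermFree and ConvR mice. None of the 57 regions differed past the threshold, either over the 4 sections summed or within a section, and the levels of the arrays overlapped between the models. The summed level of the Pcdha array, averaged over the sections of a mouse, was 201.5 ± 8.35 CPM over the 5 ConvR mice (± SD) and 195.3 ± 7.64 CPM over the 7 GermFree mice. The Pcdhb array had 208.9 ± 11.1 and 206.6 ± 3.75 CPM in the same order, and the Pcdhg array 263.9 ± 9.67 and 254.2 ± 8.20 CPM. On the log2 scale, GermFree minus ConvR was -0.045 for Pcdha, -0.0147 for Pcdhb and -0.0542 for Pcdhg. The SD between GermFree mice was 0.0563, 0.0261 and 0.0467 on that scale and between ConvR mice 0.0604, 0.0764 and 0.0523, in the same order. The Pcdhg difference was thus slightly larger than either SD, and its levels still overlapped, from 243.1 to 263.4 CPM in GermFree and from 254.3 to 279.0 CPM in ConvR mice.

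**Figure D1:**
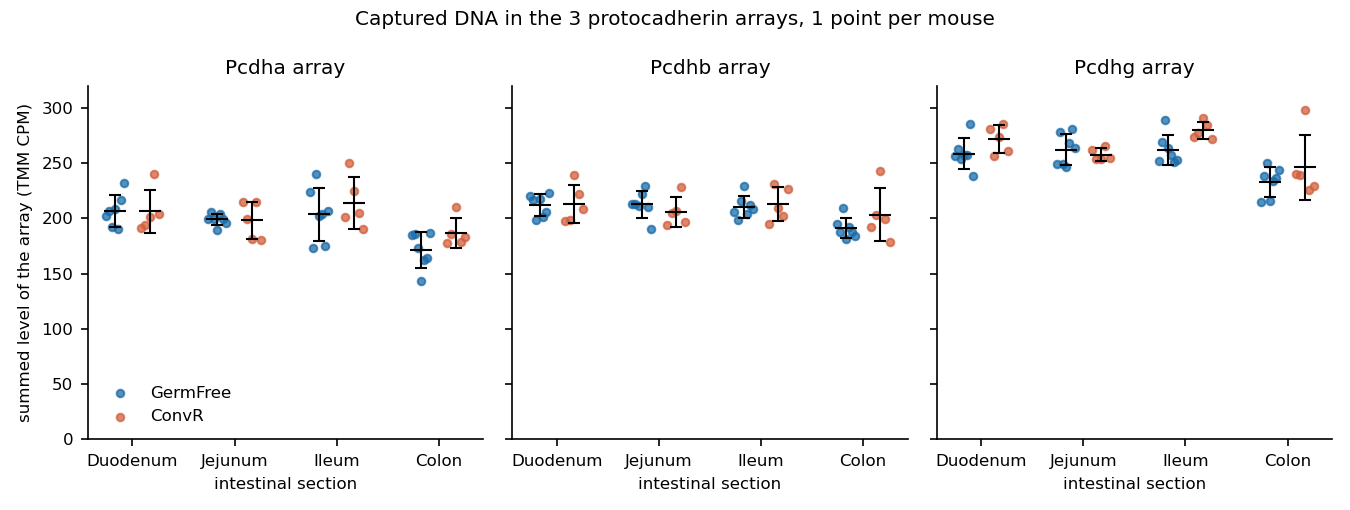
Summed level of each protocadherin array (y axis, TMM CPM, from 0) by intestinal section (x axis), with 1 point per mouse, GermFree in blue and ConvR in orange, and black bars for mean and SD. The models overlap in every section, the colon mean is the lowest of the 4 sections in each array, and ConvR mouse 3 stands above the other ConvR mice in the colon (298 CPM in Pcdhg).

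With the sections of a mouse summed, edgeR called 0 of 57 array regions, against 0.475% of all 95882 regions, and DESeq2 also called 0. At an unadjusted p under 0.05 there were 4 of 57 by edgeR, beside 6.63% of all regions, and 2 by DESeq2. The median log2 difference was -0.05 over the 57 regions and 0.00 over all regions, and 38 of 57 were lower in GermFree mice (66.7%, against 50.5% of all regions). By array, 9 of 15 Pcdha, 12 of 19 Pcdhb and 17 of 23 Pcdhg regions were lower. Of the 11 neighbouring regions, 7 were lower (63.6%). The standard error of a single array region had a median of 0.10. In simulated data this fit recovered 38% of changes of 0.5 on the log2 scale, so differences well above that error could go uncalled.

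The smallest p was at Pcdha7, an alternate alpha gene (region 36974156 to 36975992). The summed libraries gave 9.73, 11.3, 12, 12.9 and 11.7 CPM in the 5 ConvR mice, and 8.12, 9.0 and 10.2 CPM as the lowest, median and highest of the 7 GermFree mice. The groups overlapped only through ConvR mouse 1. The log2 difference was -0.35 (SE 0.09; edgeR adjusted p = 0.0908). Without ConvR mouse 1 it was -0.39, with an edgeR adjusted p of 0.0443, so this mouse decided the call. It had the lowest ConvR value, and leaving that out widens the difference by itself, so the call is no separate support.

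The next smallest p-values were at Pcdhgb4, Pcdhgc5, Pcdhgb8 and Pcdhb13. At Pcdhgb4, a gamma B gene, ConvR mice had 8.80, 8.90, 10.7, 9.69 and 9.44 CPM and GermFree mice 6.97, 8.18 and 9.15 as lowest, median and highest (log2 -0.25, SE 0.10). At Pcdhgc5, a C-type gene, ConvR mice had 14.2, 12.9, 16.2, 13 and 13.7 CPM and GermFree mice 11.1 to 14.0 with a median of 11.6 (log2 -0.20, SE 0.08). The groups overlapped at both genes. Pcdhgb8 had a log2 difference of -0.18 and Pcdhb13 of -0.15. The edgeR adjusted p-values of these 4 regions lay between 0.621 and 0.790.

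Within single sections the calls were also 0 by both tools. In the duodenum 56 array regions could be tested, in the jejunum 55, in the ileum 57 and in the colon 55, and the background of edgeR calls was 0.463%, 0.343%, 0.365% and 0.542% of regions in that order. Unadjusted p under 0.05 occurred by edgeR in 3, 3, 2 and 4 array regions, beside 6.99%, 5.36%, 5.12% and 7.44% of all regions, and by DESeq2 in 1, 2, 1 and 1. The median log2 difference was -0.02 in the duodenum, 0.01 in the jejunum, -0.08 in the ileum and -0.14 in the colon. Over all regions it was 0.00 in each of the 4 sections.

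In the colon, 42 of 55 array regions were lower in GermFree mice (76.4%, against 50.7% of all regions and 5 of 7 neighbouring regions). Without ConvR mouse 3 it was 32 of 56 (57.1%, against 49.2% of all), and the median log2 difference went from -0.14 to -0.02. The smallest of the medians with a mouse left out was -0.19, without ConvR mouse 5. The colon’s smallest p was at Pcdha1, the first alpha gene (36930045 to 36932717). ConvR colons gave 10.3, 13.6, 17.6, 15.5 and 14.1 CPM, and GermFree colons 6.38, 9.14 and 13 as lowest, median and highest. The groups overlapped, and the log2 difference of -0.59 (SE 0.18) had an edgeR adjusted p of 0.180. Without ConvR mouse 3 it was -0.48 (SE 0.19; edgeR adjusted p = 0.733).

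Smallest p-values of the other sections were at Pcdhgb4 in the duodenum (log2 -0.50, SE 0.19; edgeR adjusted p = 0.510) and at Pcdha7 in the ileum (log2 -0.54, SE 0.19; edgeR adjusted p = 0.563). In the jejunum it was the region between the starts of Pcdha7 and Pcdha8, with a higher value in GermFree mice, by 0.61 on the log2 scale (SE 0.21; edgeR adjusted p = 0.466). None of these passed the threshold. A direct test of whether the difference between the models varied by section called 0 of 57 regions in edgeR and in DESeq2, with 0% of all regions called by edgeR. There, 3 array regions had an unadjusted p under 0.05 by edgeR (4.95% of all regions) and 2 by DESeq2. The smallest p-values were at Pcdhb19 and Pcdha1, each with an edgeR adjusted p of 0.986.

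**Figure D2:**
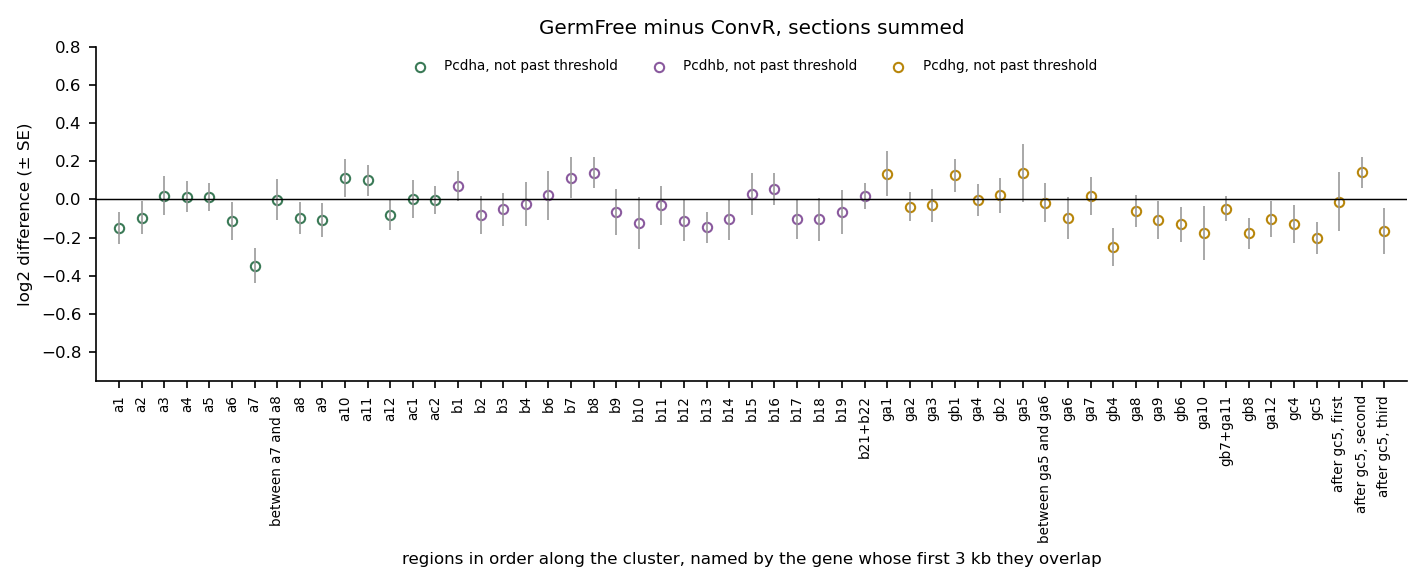
GermFree minus ConvR log2 difference with the sections summed (y axis, ± SE) for the 57 array regions in order along the chromosome (x axis), coloured by array. Open points are regions that did not pass an adjusted p of 0.05, which all 57 are, and the lowest point is Pcdha7 at -0.35.

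The second comparison asked how captured DNA at these genes varied along the intestine. No array region passed from duodenum to jejunum or from jejunum to ileum, and 5 alpha and gamma regions held less captured DNA in the colon than in the ileum. The 57 regions summed to 683.4 ± 30.1 CPM in the duodenum, 669.2 ± 24.8 in the jejunum, 689.3 ± 37.3 in the ileum and 612.9 ± 49.7 in the colon (SD, n = 12 mice each). The colon value lay below the ileum value of the same mouse in 11 of 12 mice, 7 of 7 GermFree and 4 of 5 ConvR. The exception was ConvR mouse 3, whose colon gave 751.3 CPM. That library had the highest TMM factor of the colon libraries, 1.014. GermFree mouse 4 had the lowest colon factor, 0.9652, and the lowest colon sum, 540.9 CPM. The next highest colon factor, 1.001 in ConvR mouse 5, went with a low sum of 590.9 CPM. Whether library composition has a part in the colon difference was not tested.

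Jejunum against duodenum gave 0 called regions of 57 and 0% of all regions by edgeR, and 0 array regions by DESeq2. Unadjusted p under 0.05 occurred in 3 array regions by edgeR (5.41% of all) and in 2 by DESeq2. Ileum against jejunum also gave 0 called regions of 57 and 0% of all regions by edgeR, and 0 array regions by DESeq2. Here 6 array regions had an unadjusted p under 0.05 by edgeR (6.76% of all) and 3 by DESeq2. The median log2 difference of the array regions was -0.04 from duodenum to jejunum and 0.07 from jejunum to ileum. Pcdha6 had the smallest p in the first step (log2 -0.32, SE 0.14). The region between the starts of Pcdha7 and Pcdha8 had it in the second (log2 0.41, SE 0.15), and Pcdhac2 was close behind with a difference of -0.27 (SE 0.10).

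Between colon and ileum, 5 of 57 array regions passed in edgeR, all of them lower in the colon. The background was 2.19% of all 95876 tested regions in either direction and 0.708% for lower in the colon. The median log2 difference was -0.15 over the 57 regions and 0.00 over all regions, and 47 of 57 were lower (82.5%, against 50.7% of all). At an unadjusted p under 0.05 there were 21 of 57 by edgeR, beside 15.2% of all regions. Since each mouse gave every section, the fit with the mouse as a block is given beside it. That fit called 8, the same 5 together with Pcdha6, Pcdha12 and Pcdhgc4. DESeq2 called 2, Pcdhga12 and Pcdhgc5, and gave an adjusted p to 27 of the 57 regions only.

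By array, the counts were as follows, and whether the arrays differ from each other was not tested. In Pcdha, 14 of 15 regions were lower in the colon than in the ileum, with a median log2 difference of -0.33, and 3 passed. In Pcdhb, 14 of 19 were lower with a median of -0.12, and 0 passed, with 3 at an unadjusted p under 0.05 by edgeR. In Pcdhg, 19 of 23 were lower with a median of -0.15, and 2 passed. The 11 neighbouring regions had 8 lower, a median of -0.17 and 0 passed, with 3 at an unadjusted p under 0.05 by edgeR.

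**Figure D3:**
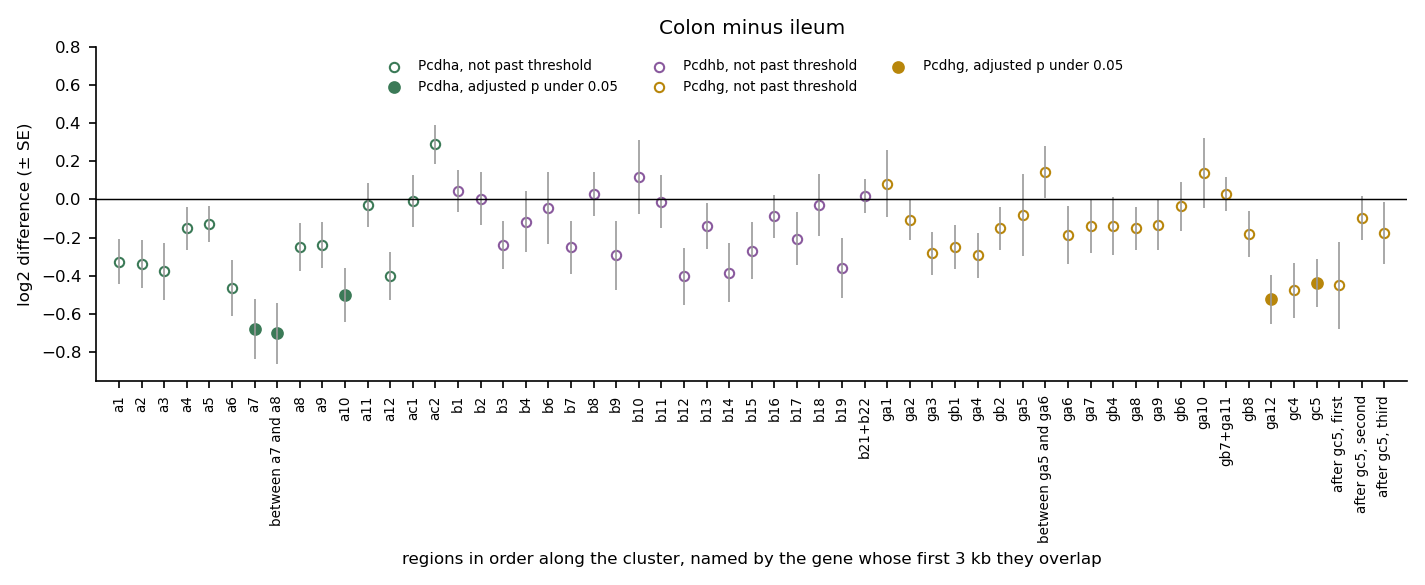
Colon minus ileum log2 difference (y axis, ± SE) for the 57 array regions in order along the chromosome (x axis), coloured by array, with filled points for an adjusted p under 0.05 in edgeR. The filled points are Pcdha7, the region after it and Pcdha10 in the alpha array and Pcdhga12 and Pcdhgc5 in the gamma array, and Pcdhac2 is the highest point at 0.29.

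The region inside Gm36858, between the starts of Pcdha7 and Pcdha8, differed most. In the ileum the ConvR mice had 5.06, 14.5, 16.9, 11.7 and 8.57 CPM, and the GermFree mice 4.51, 9.92 and 15.9 as lowest, median and highest. In the colon the ConvR mice had 6.46, 8.61, 8.60, 8.07 and 4.24 CPM, and the GermFree mice 2.94, 7.32 and 10.7. The ranges of the sections overlapped, and the colon was lower within 10 of 12 mice. The log2 difference was -0.70 (SE 0.16; edgeR adjusted p = 0.00722), and it passed with each mouse left out in turn.

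Pcdha7 showed a difference of similar size. Its ileum levels were 9.11, 17.5, 14.4, 14.6 and 15 CPM in ConvR mice and 6.61, 9.46 and 16.9 in GermFree mice as lowest, median and highest. Its colon levels were 6.46, 7.25, 12.5, 6.05 and 12.7 CPM in ConvR mice and 1.97, 6.99 and 10.5 in GermFree mice. The colon was lower in 11 of 12 mice, with a difference of -0.68 on the log2 scale (SE 0.16; edgeR adjusted p = 0.00848). Without ConvR mouse 2, the edgeR adjusted p was 0.0711.

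Pcdha10, another alternate alpha gene, had 16.2, 13.8, 6.25, 8.36 and 9.86 CPM in ConvR ileum and 7.02, 9.46 and 10.6 in GermFree ileum. In the colon it had 5.81, 7.70, 9.03, 5.38 and 5.18 CPM in ConvR mice and 4.91, 8.07 and 8.67 in GermFree mice. The colon was lower in 11 of 12 mice, and ConvR mouse 3 was again the exception. The log2 difference was -0.50 (SE 0.14; edgeR adjusted p = 0.0361). This call was lost with any of 7 mice left out (ConvR mice 1, 2, 4 and 5, GermFree mice 1, 4 and 5), and the log2 difference then stayed between -0.52 and -0.44.

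In the gamma array, Pcdhga12 (37766171 to 37768727), the last gamma A gene, had 14.2, 19.9, 15.6, 16.3 and 17.6 CPM in ConvR ileum and 10.3, 13.2 and 22.1 in GermFree ileum. Its colon levels were 6.46, 11.3, 20.2, 11.4 and 9.42 CPM in ConvR mice and 6.38, 8.63 and 15.8 in GermFree mice. The colon was lower in 10 of 12 mice, with a difference of -0.52 on the log2 scale (SE 0.13; edgeR adjusted p = 0.0127). The call was lost without ConvR mouse 2 or without ConvR mouse 5 (edgeR adjusted p = 0.0849 and 0.0626). Without ConvR mouse 3 the difference was -0.70 (edgeR adjusted p = 0.00066).

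Pcdhgc5 (37819726 to 37821688), a C-type gene, had 14.2, 15.5, 18.1, 13.8 and 19.7 CPM in ConvR ileum and 9.03, 13.7 and 16.3 in GermFree ileum. Its colon levels were 11, 9.06, 19.8, 7.40 and 9.90 CPM in ConvR mice and 8.07, 9.89 and 11 in GermFree mice. The colon of ConvR mouse 3 lay above every other colon. The log2 difference was -0.44 (SE 0.13; edgeR adjusted p = 0.0387). This call was lost with any of 8 mice left out, ConvR mice 1, 2, 4 and 5 and GermFree mice 1, 3, 4 and 5, with differences from -0.44 to -0.36. Without ConvR mouse 3 it was -0.59 (edgeR adjusted p = 0.00326).

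**Figure D4:**
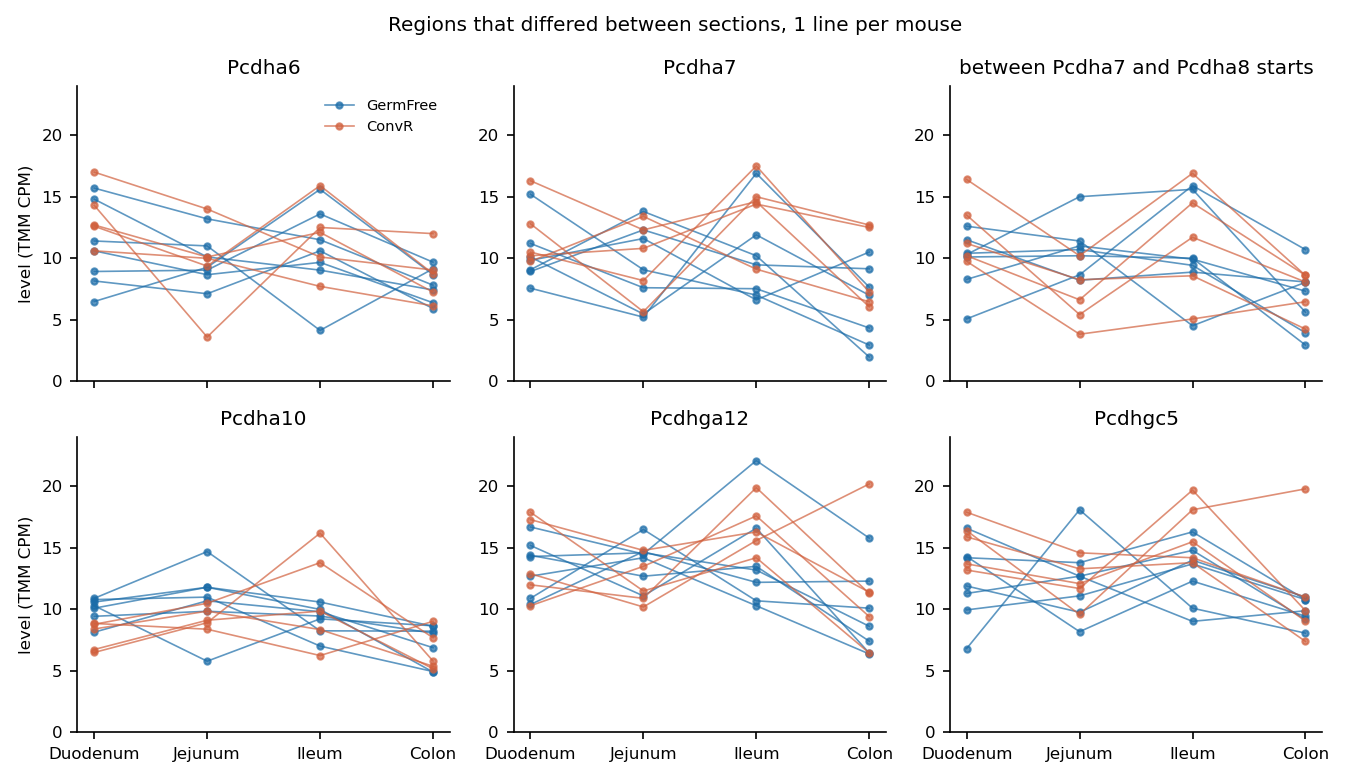
Level (y axis, TMM CPM, from 0) in the 4 sections (x axis) of the 6 array regions that passed in at least 1 comparison with the colon, with 1 line per mouse, GermFree in blue and ConvR in orange. Most lines fall from ileum to colon, the ranges of the sections overlap, and ConvR mouse 3 is the high colon point at Pcdhga12 (20.2 CPM) and Pcdhgc5 (19.8 CPM).

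By type of gene, all 12 regions at alternate alpha starts were lower in the colon than in the ileum, with log2 differences from -0.68 to -0.03 and a median of -0.33, and 2 of them passed. The 5 gamma B regions were also all lower, with a median of -0.15 and 0 passed, 1 of them at an unadjusted p under 0.05 by edgeR. Of the 11 gamma A regions, 9 were lower and 1 passed. The region that overlapped the first 3 kb of both Pcdhgb7 and Pcdhga11 belongs to neither count and had a log2 difference of 0.03. The 4 C-type regions were split. Pcdhgc4 and Pcdhgc5 had -0.48 and -0.44, Pcdhac1 had -0.01 and Pcdhac2 had 0.29.

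Pcdhac2, the last gene of the alpha array, was the single alpha region with a higher value in the colon. It had 16.2, 13.1, 15, 19.2 and 16.3 CPM in ConvR ileum and 25.2, 18.6, 14.2, 26.2 and 28.3 CPM in ConvR colon. GermFree mice had 15.6, 19.5 and 25.7 CPM in the ileum and 17.7, 21.9 and 25.5 in the colon as lowest, median and highest. The log2 difference of 0.29 (SE 0.10) had an edgeR adjusted p of 0.113. Without ConvR mouse 3 it was 0.36, with an edgeR adjusted p of 0.0310.

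Toward the end of the gamma array, 4 neighbouring regions in a row had the most negative differences between colon and ileum of that array, a run picked out after its values were seen. They are Pcdhga12, Pcdhgc4, Pcdhgc5 and the region past the start of Pcdhgc5, with log2 differences of -0.52, -0.48, -0.44 and -0.45, of which the first and the third passed. The Pcdhgc4 region (37816652 to 37818044) had an edgeR adjusted p of 0.0512, and 0.0170 with the mouse as a block.

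ConvR mice 2 and 3 changed these counts most, in opposite directions. In ConvR mouse 3, between its own colon and ileum, 24 of 57 array regions were lower, against 31 to 44 of 57 in the other 11 mice. Over all regions of the series the share lower in this mouse was 48.9%, within the 48.9% to 51.0% of the 12 mice. TMM scaling centres the differences between libraries, so that share could hardly move. It does not show whether the library was ordinary outside the arrays. Without it edgeR called 9 array regions between colon and ileum, 8 of them lower and Pcdhac2 higher. Without ConvR mouse 2, 1 region remained past the threshold, the one inside Gm36858. The share of all regions called in these fits is not given here, so the counts stand without a background. Whether such changes are particular to the arrays was not tested. The median log2 difference of the 57 regions was -0.25 without ConvR mouse 3 and -0.15 without ConvR mouse 2, beside -0.15 with all mice.

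Colon against duodenum uses the same colon libraries, so its values stand beside those above and are not separate evidence. There 2 of 57 array regions passed in edgeR, both lower in the colon, beside 1.21% of all regions in either direction and 0.3% for lower. With the mouse as a block 4 passed, with Pcdha7 and Pcdhb3 added, and the share of all regions called in that fit is not given here. DESeq2 called 0, but gave an adjusted p to 5 of the 57 array regions only. The 2 array regions that edgeR called were not among these. At an unadjusted p under 0.05 there were 14 array regions in DESeq2 and in edgeR alike (13.2% of all regions by edgeR). The region inside Gm36858 had a difference of -0.64 on the log2 scale (SE 0.16; edgeR adjusted p = 0.0257). Pcdha6 had 17, 12.7, 14.3, 12.6 and 10.6 CPM in ConvR duodenum against 9.04, 7.25, 12, 8.74 and 6.13 CPM in ConvR colon. In GermFree mice it had 6.48, 10.6 and 15.7 CPM in the duodenum and 5.91, 7.81 and 9.68 in the colon as lowest, median and highest. The ranges overlapped in both models, and the log2 difference was -0.53 (SE 0.15; edgeR adjusted p = 0.0392).

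Of the 57 array regions, 46 were lower in the colon than in the duodenum, with a median log2 difference of -0.15 against 0.00 over all regions. By array, 12 of 15 Pcdha, 13 of 19 Pcdhb and 21 of 23 Pcdhg regions were lower. Of the 11 neighbouring regions, 10 were lower, with a median of -0.135. Among the beta genes, Pcdhb3 had the smallest p, with a difference of -0.40 on the log2 scale (SE 0.12; edgeR adjusted p = 0.0781, and 0.0481 with the mouse as a block). A neighbouring region between the beta and gamma arrays (37575482 to 37576092) also passed, with 5.98 ± 1.87 CPM in the duodenum and 3.54 ± 1.53 in the colon (SD, n = 12 each; log2 -0.77, SE 0.20; edgeR adjusted p = 0.0340). Each of the calls in this comparison was lost with some mice left out, and leaving out ConvR mouse 1, 4 or 5 or GermFree mouse 4 or 6 left 0 array regions past the threshold.

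A joint test for any difference between the 4 sections called 2 of 57 array regions in edgeR, the region inside Gm36858 (edgeR adjusted p = 0.0152) and Pcdha7 (0.0299), beside 1.16% of all regions. With the mouse as a block, 4 passed, with Pcdha6 and Pcdhga12 added, and the share of all regions in that fit is not given here. DESeq2 called 0, but gave an adjusted p to 7 of the 57 array regions only. The region inside Gm36858 and Pcdha7 had none. At an unadjusted p under 0.05 DESeq2 had 13 array regions. The share of all regions at that level was 12.2% by edgeR. Leaving out ConvR mouse 4 or 5 or GermFree mouse 4 left 0 past the threshold. By mean level, 40 of the 57 array regions were lowest in the colon (70.2%), against 30.8% of all regions. The 11 neighbouring regions were lowest there in 8 cases (72.7%), so this was not particular to the arrays.

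The arrays were lower in the colon than in the ileum on average in both models. The log2 difference between colon and ileum of the summed arrays was -0.16 ± 0.13 over the 5 ConvR mice and -0.18 ± 0.10 over the 7 GermFree mice (± SD). For the single arrays over the 12 mice it was -0.22 ± 0.18 in Pcdha, -0.11 ± 0.15 in Pcdhb and -0.18 ± 0.10 in Pcdhg (SD), with 11 of 12 mice lower in each. Leaving out each mouse in turn kept these means between -0.25 and -0.20, between -0.14 and -0.09, and between -0.20 and -0.16. In ConvR mice alone the mean for Pcdhb was -0.07 ± 0.21. Against the jejunum, the colon of the summed arrays differed by -0.18 ± 0.09 in GermFree mice, lower in 7 of 7. In ConvR mice it differed by -0.06 ± 0.17, lower in 4 of 5, which is within the spread between mice.

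Over the whole series, the difference between colon and ileum varied with how dense the captured DNA was, but not in a single direction. When all regions were split into 10 groups of equal size by CPM per kb, the median log2 difference fell from 0.07 in the lowest group to -0.08 in group 7. It then rose to -0.06, -0.05 and -0.02 in groups 8, 9 and 10. Groups 1, 2 and 3, with medians of 0.07, 0.05 and 0.04, held 3, 5 and 5 of the 57 array regions. Groups 4, 5 and 6, with medians of 0.01, -0.02 and -0.06, held 12, 16 and 10 of the 57 array regions. The median of the array regions, -0.15, lay below that of every group, and so did that of the 11 neighbouring regions, -0.17. On chromosome 18 outside the window the median was -0.01.

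Captured DNA at genes of other cell types was given for the same comparison. Between colon and ileum, the median log2 difference was -0.07 over 42 regions of genes of enteric neurons and glia, -0.15 over 24 regions of epithelial genes, -0.02 over 10 of lymphocyte genes and -0.05 over 11 of muscle genes. In these 4 lists 0 regions passed in edgeR or DESeq2. At an unadjusted p under 0.05 there were 5, 6, 2 and 1 regions by edgeR and 4, 5, 1 and 0 by DESeq2, in the same order, beside 15.2% of all regions by edgeR. Such regions do not count cells, and the part of cell mixture in the colon difference was not tested.

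Genes known to act on the clusters were measured in the same way. Of 18 genes for CTCF, cohesin, DNA methyltransferases and other chromatin regulators, 14 had a region, 69 regions in all, and 2 passed between colon and ileum in edgeR, a share near the 2.19% of all regions. At Ctcf, whose protein binds protocadherin promoters and enhancers, a region (chromosome 8, 105664989 to 105666855) gave 8.53 ± 1.83 CPM in the ileum and 11.8 ± 2.56 in the colon (SD, n = 12 each). It was higher in the colon by log2 0.47 (SE 0.14; edgeR adjusted p = 0.0383), and against the duodenum by log2 0.55 (edgeR adjusted p = 0.0214). At Dnmt1, the maintenance DNA methyltransferase, a region (chromosome 9, 20906982 to 20910308) gave 21.4 ± 2.86 CPM in the ileum and 16.1 ± 4.64 in the colon. It was lower in the colon, with a log2 value of -0.39 (SE 0.10; edgeR adjusted p = 0.0239), and DESeq2 also called it (adjusted p = 0.0296) but not the Ctcf region, to which it gave no adjusted p. The median over the 69 regions was 0.00.

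Of 12 protocadherin genes outside the clusters, 9 had 49 regions, and 1 region passed between colon and ileum in edgeR, again near the share of all regions. It lies at Pcdh15, a protocadherin of sensory hair cells (chromosome 10, 73994677 to 73995212), with 5.37 ± 1.49 CPM in the ileum and 2.89 ± 0.911 in the colon (log2 -0.85, SE 0.21; edgeR adjusted p = 0.0136). The median over the 49 regions was -0.07. Of 11 genes for partners and signalling of the clustered protocadherins, 10 had 65 regions, and 1 passed, also near that share, at Wasf1, a subunit of the WAVE complex that drives actin assembly (chromosome 10, 40895561 to 40896164). It was lower in the colon, with 5.73 ± 1.54 and 3.42 ± 1.49 CPM (log2 -0.72, SE 0.21; edgeR adjusted p = 0.0403). DESeq2 gave no adjusted p to the Pcdh15 and Wasf1 regions, with unadjusted p-values of 0.000336 and 0.00188. Between GermFree and ConvR mice, edgeR and DESeq2 called 0 regions of these 3 lists, over the summed sections and in each section. Over the summed sections, 5 regulator, 5 protocadherin and 2 partner regions had an unadjusted p under 0.05 by edgeR, and 2, 4 and 2 by DESeq2. In a single section it was 1 to 5 regions of a list by edgeR and 0 to 2 by DESeq2.

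The regions most like the arrays were sought over the 48 libraries, after each group mean was removed, among 66522 regions outside the window. The summed level of the arrays correlated best with a region of Ank3, which encodes ankyrin-G, a scaffold of the axon initial segment (chromosome 10, 69986760 to 69994533; Pearson r = 0.85). Next were a region on chromosome Y without a gene (10704891 to 10708918; r = 0.77) and a region of Zfp462, a zinc finger gene (chromosome 4, 55007613 to 55013954; r = 0.76). The median r over all these regions was -0.01. The 3 regions had high mean levels, 43.6, 77.5 and 32.4 CPM in that order, beside a median of 7.32 CPM over all 95882 regions. Counting noise lowers r at regions with few counts, so the ranking favours regions with many. Without the 2 libraries farthest from the median, the colon of ConvR mouse 3 and the ileum of GermFree mouse 3, the values were 0.80, 0.69 and 0.71. These correlations are descriptions, because the 48 libraries share 12 mice and the 3 regions were the highest of many. Between the arrays themselves, r was 0.40 for Pcdha with Pcdhb, 0.39 for Pcdha with Pcdhg and 0.35 for Pcdhb with Pcdhg. With the library total, r was 0.29, 0.23 and -0.01 for Pcdha, Pcdhb and Pcdhg.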

How the data were processed

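MBD-seq libraries of 48 intestinal samples were used. Per the submitters' processing notes, Trim Galore 0.3.7, cutadapt 1.4.2, MACS2 and featureCounts were used with mm10. The aligner and the handling of duplicates were not given in the sources used here. The deposited table holds whole-number counts per region, not normalised, and the deposited peak list holds positions and a score per region, which is the authors' value and was not used in a test.

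Regions were matched to genes by the RefSeq gene table of GRCm38.p6 (same coordinates as mm10, without strand or exons), and a region belonged to an array when it overlapped a gene of it or lay within 5 kb. All regions were fitted with edgeR 4.0.16 in R 4.3.3 (TMM, filterByExpr, quasi-likelihood F-test, Benjamini-Hochberg over all tested regions, threshold 0.05). Mouse models were compared within each section and on counts summed per mouse, sections over 48 libraries in 8 groups. DESeq2 1.42.0, its size factors, no filter, blocks, and each mouse left out were alternatives. Correlations used log2(CPM + 1) of regions with a mean of at least 5 CPM. Python 3.11.15 was used with pandas 2.3.3, NumPy 2.4.6, Matplotlib 3.10.9 and SciPy 1.17.1, and R with limma 3.58.1.

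Libraries of the same mouse pair the section comparisons, by the labels, and their deviations had a median correlation of 0.0288 over 72 pairs. Mouse numbers do not pair the models (median -0.0885 over 5 pairs). Named were member regions past the threshold, up to 5 with the smallest p where fewer than 5 passed, the 3 highest per kb and the lowest of each array, and the 3 most alike regions. Where not in the rule, a name was chosen after its values were seen. The members, the gene lists and the choice to leave out ConvR mice 1 and 3 were made with earlier results of these data known. On simulated data, the model fit on summed sections (95882 regions) recovered 97% of changes of 1 and 38% of changes of 0.5 on the log2 scale, the duodenum fit (75657 regions) 63% and 8%, and the fit of colon against duodenum (95812 regions) 94% and 40%. The simulated counts had a spread fixed in advance and no mouse effects, and only regions above a minimum mean count were changed. Recovery in the real data may differ.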

Additional observations from a re-analysis of the deposited data

Results flagged for a closer look

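A sample that stood far from the other ConvR mice of its section was found in 4 of 80 groups examined. Chance alone flags about 1 in 20 groups, so the number of flags is no more than chance gives. The Pcdha array summed to 240 CPM in the duodenum of ConvR mouse 4, where the other 4 ConvR mice had 192 to 204. In the colon of ConvR mouse 3, the Pcdha array summed to 211 CPM (178 to 186 in the others) and the Pcdhg array to 298 CPM (225 to 240). At Pcdhgc5 the same library gave 19.8 CPM, against 7.40 to 11 in the others. The flags in that colon come from 1 library, and Pcdhgc5 is part of the Pcdhg sum, so they are not separate.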

How the results depend on the processing

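With the mouse as a replicate block, edgeR called 8 array regions between colon and ileum (5 without the block), 4 between colon and duodenum (2 without) and 4 for any difference between sections (2 without), and it changed no other count of calls. DESeq2 called 2, 0 and 0, and gave an adjusted p to only 27, 5 and 7 of the 57 array regions in the same order. The shares of all regions called with the block, by DESeq2 and with mice left out are not given here. Counts of calls from those fits stand without a background. Without ConvR mice 1 and 3, an alternative chosen after earlier results of these data were known, the counts were 8 for colon against ileum and 4 for any difference, and the neighbouring region between the beta and gamma arrays no longer passed against the duodenum (edgeR adjusted p = 0.0642). With each mouse left out in turn, the calls ranged from 1 to 9 for colon against ileum, from 0 to 6 for colon against duodenum, from 0 to 6 for any difference, and from 0 to 1 for GermFree against ConvR over summed sections. The highest counts of the 3 section comparisons came without ConvR mouse 3, and the 1 model call (Pcdha7) without ConvR mouse 1. The cause of these changes was not tested, beyond the smaller number of libraries. Between the models, a replicate block of mouse numbers or of title codes gave 0 called array regions, and the jejunum median of the array regions (0.01) became -0.01 under each. No called region changed sign. DESeq2 size factors in edgeR and no count filter kept the same regions past the threshold, and array levels from library totals kept their directions. Leaving out single mice moved the duodenum median between -0.05 and 0.02 and the Pcdhb model difference between -0.04 and 0.01. At the depth and number of mice used here, and with a spread fixed in advance, simulated log2 changes of 0.5 were mostly not recovered.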
